A study of Mus musculus with 18 samples.

Results

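Neutrophils and their relatives store proteases and antimicrobial proteins in granules that are filled while the cells mature in bone marrow. The proteases and peroxidase of azurophil granules are transcribed first, in promyelocytes, and the proteins of specific granules follow in myelocytes and metamyelocytes, whereas circulating neutrophils carry the finished proteins and transcribe little of most of these genes. Transcripts of both stages therefore serve as markers of immature granulocytes. The genes described here are 10 of the 49585 genes in the count table. They are the azurophil stage genes Elane, Mpo, Prtn3, Ctsg and Ms4a3 and the specific granule stage genes Camp, Ngp, Ltf, Fcnb and Lcn2. They were selected by name, with their high values in leukocytes that stayed in the inflamed joint already known. For the members, the comparisons of those cells with the other inflamed populations are therefore a description without a test, and only the remaining comparisons were tested. Genes outside the 10 were tested in all comparisons.

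The libraries are bulk RNA-seq of CD45+ leukocytes, 3 pooled samples for each of 6 groups, and the protocol given with every sample names a sort of viable Kaede red+ cells. All mice were of the Kaede strain, which expresses a green fluorescent protein that light converts to red, and were 6 to 10 weeks old. For the 4 inflamed groups, mice had received OT-II Th1 cells and an immunization with ovalbumin in complete Freund's adjuvant, and 10 days later 100 µg of heat-aggregated ovalbumin (HAO) in the footpad or the ear pinna. The inflamed site was photoconverted on day 3 after challenge and cells were sorted 24 h later. Red cells still at the site form the joint nonmigrated and skin nonmigrated groups, and red cells in the draining lymph node form the joint migrated and skin migrated groups. The labels call the skin site ear. The steady joint node and steady skin node groups are labelled as leukocytes that reached the node from uninflamed joint or ear. The titles of the steady joint node libraries read PBS and KG, and those of the steady skin node read Naive. In the study's protocol, mice challenged with PBS in place of HAO had also received the OT-II Th1 cells and the immunization. If the title PBS follows that protocol, this holds for the steady joint node mice. Whether the steady skin node mice received cells, immunization or PBS is not given in the sources used here. The labels do not explain KG. If it stands for Kaede green, the steady joint node libraries would hold unconverted cells of the node and not cells that came from the joint, and every comparison with that group would have to be read so. Site cannot be told apart from this difference in titles, or in treatment behind it, wherever the steady nodes are compared with each other. Ankle joints, unlike ears, were also homogenized mechanically after digestion. The 3 pools of a group are taken as replicates, and nothing in the labels says which animals went into which pool, so p-values measure the spread between these pools.

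Total counts assigned to genes ran from 19239531 to 43814403 per library. Those of skin nonmigrated and skin migrated cells held 19239531 to 22528895, and every other library at least 28577566. The study describes the inflamed skin data as a second data set, and whether it was sequenced apart is not given. Wherever the inflamed skin groups are compared with other groups, site or inflammation cannot be told apart from this difference. A count of 3, treated as the floor of detection, equals 0.0616 to 0.18 CPM (assigned counts relative to library size, scaled by TMM factors over all 18 libraries), and it covers counting error only. Ptprc, which encodes CD45, lay between 1156 and 2531 CPM in the 18 libraries. The label of immature granulocytes rests on 10 transcripts in mixed leukocytes. In bulk libraries fewer cells of a type and less RNA per cell cannot be told apart.

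On mm10 the genes fall into a few chromosomal neighbourhoods. Prtn3 (chromosome 10, 79874476 to 79883174, plus strand) ends 3072 bases before Elane (79886247 to 79888215, plus strand), the adjoining gene of a related serine protease. Camp (109847379 to 109849617, minus strand), Ngp (110419747 to 110423012, plus strand) and Ltf (111019271 to 111042767, plus strand) all lie on chromosome 9. Fcnb (28076378 to 28084885) and Lcn2 (32384633 to 32388252) are on the minus strand of chromosome 2. Mpo (87793581 to 87804413, plus strand) is on chromosome 11, Ctsg (56099881 to 56102574, minus strand) on chromosome 14 and Ms4a3 (11629496 to 11640851, minus strand) on chromosome 19. Mpo overlaps the antisense gene Gm11505 and Prtn3 overlaps Plppr3 on the opposite strand. Whether the library kit marked strand is not given in the sources used here, so reads of these partners cannot be told apart.

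The promoters of 4 members are shown, picked after the motif search. They are the neighbouring azurophil stage genes Elane and Prtn3 and the specific granule stage genes Ngp and Ltf, which were all highest in the same 3 libraries. Each line gives the 150 bases before the RefSeq transcription start on mm10, 5′ to 3′ on the strand of the gene. Capitals mark GAGGAA, a core bound by PU.1, or TTNNGNAAT, a core bound by C/EBP proteins, on either strand.
Elane (chr10:79886162-79886311, plus strand): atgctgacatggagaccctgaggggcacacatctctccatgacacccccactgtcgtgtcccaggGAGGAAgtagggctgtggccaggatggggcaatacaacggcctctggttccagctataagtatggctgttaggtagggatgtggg
Prtn3 (chr10:79879517-79879666, plus strand): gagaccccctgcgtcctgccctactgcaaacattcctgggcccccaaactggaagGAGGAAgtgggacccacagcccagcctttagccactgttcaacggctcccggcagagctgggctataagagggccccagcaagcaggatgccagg
Ngp (chr9:110419658-110419807, plus strand): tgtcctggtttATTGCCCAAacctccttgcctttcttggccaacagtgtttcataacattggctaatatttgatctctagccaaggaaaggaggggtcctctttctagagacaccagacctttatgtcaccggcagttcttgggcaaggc
Ltf (chr9:111019142-111019291, plus strand): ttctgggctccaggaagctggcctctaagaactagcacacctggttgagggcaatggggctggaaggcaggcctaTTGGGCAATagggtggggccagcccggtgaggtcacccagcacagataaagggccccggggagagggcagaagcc
All 10 members had a RefSeq promoter. The neighbouring protease genes Elane and Prtn3 both hold GAGGAA on the plus strand, at -85 to -80 and at -95 to -90 from the start. Ngp holds the C/EBP letters at -139 to -131 on the minus strand, and Ltf at -75 to -67 on the plus strand. In the 250 bases before the start, GAGGAA was found on either strand in 6 of the 10 members (Elane, Mpo, Prtn3, Ctsg, Ltf and Lcn2) and in 23.3% of all 32851 promoters. TTNNGNAAT was found in 2 of 10 (Ngp and Ltf) and in 10.2% of all promoters. AACNG, a core bound by MYB, was found in 9 of 10 and in 74.2% of all, and TATAAA in 1 of 10 (Ctsg) and in 12.4% of all. In Ltf the GAGGAA match and a MYB match share 1 base. A match is a description of the letters and shows no binding.

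The joint nonmigrated libraries held the members at their highest levels in the series, and every member was higher in all 3 of them than in any other library. Together the 10 genes took 0.43%, 0.874% and 1.47% of all assigned counts in joint nonmigrated replicates 1, 2 and 3. In the 15 other libraries they took at most 0.0436%. All 10 members were at least 2-fold higher without overlap in joint nonmigrated than in skin nonmigrated cells, where 7.03% of all tested genes were, and in joint nonmigrated than in joint migrated cells, where 19% were. The members were chosen with this difference known, so nothing is read from those counts.

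**Figure D1:**
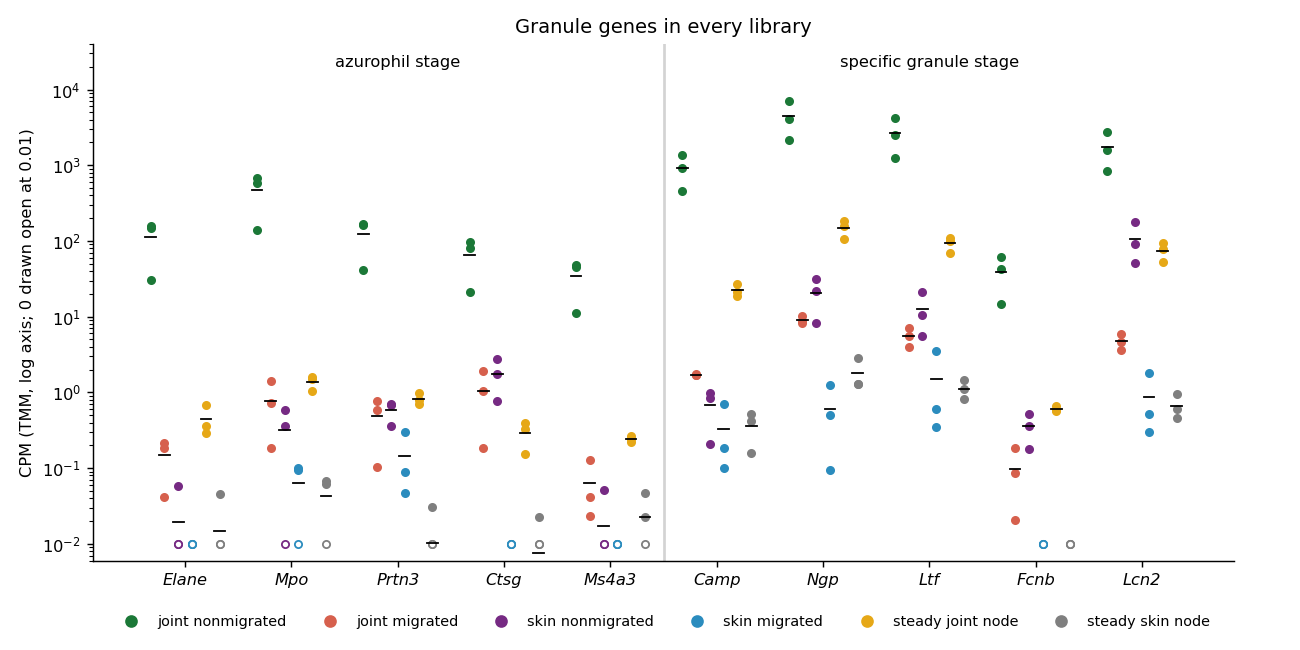
CPM (TMM scaled, log axis) of each of the 10 granule genes in each of the 18 libraries, coloured by group, with a short line at each group mean and open points at 0.01 for libraries with a count of 0. The 3 joint nonmigrated points lie above all others for every gene, and for the specific granule stage genes the steady joint node points lie above the joint migrated points.

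Among the azurophil stage genes, Elane encodes neutrophil elastase, and it measured 30.7, 159 and 147 CPM in joint nonmigrated replicates 1, 2 and 3. In skin nonmigrated cells Elane had 0, 1 and 0 counts, which makes a ratio of 5716 with a counting interval of 1026 to 225800. Replicate 1 of the joint nonmigrated cells was the lowest, 5.17-fold under replicate 2. Mpo, the peroxidase that makes hypochlorous acid, measured 142, 670 and 584 CPM there. In joint migrated cells Mpo measured 0.185, 0.724 and 1.39 CPM, and in skin nonmigrated cells it measured 0.36, 0.585 and 0 CPM. Neither group overlapped with the joint nonmigrated values.

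Prtn3, the gene of proteinase 3, measured 41.9, 166 and 161 CPM in joint nonmigrated cells and 0.36, 0.702 and 0.676 CPM in skin nonmigrated cells. Ctsg, which encodes the chymotrypsin-like protease cathepsin G, measured 21.1, 96.5 and 80.2 CPM in joint nonmigrated cells. Ms4a3, a membrane protein gene used to mark granulocyte-monocyte progenitors and their progeny, measured 11.3, 45.2 and 48.2 CPM there. For all 5 of these genes replicate 1 was the lowest, by 3.96-fold to 5.17-fold against the highest. Ctsg stood apart from the other azurophil stage genes in the skin, at 0.78, 2.75 and 1.77 CPM in skin nonmigrated cells, and the fold of joint over skin nonmigrated means was 37.4 for Ctsg against 212 for Prtn3 and 1477 for Mpo.

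The specific granule stage genes were the more abundant set. Ngp, neutrophilic granule protein, measured 2146, 4134 and 7084 CPM in joint nonmigrated replicates 1, 2 and 3. Ltf, the iron-binding protein lactoferrin, measured 1234, 2517 and 4275 CPM. Camp, which encodes the cathelicidin antimicrobial peptide, measured 459, 911 and 1367 CPM. In these genes replicate 3 was the highest and replicate 1 the lowest, a different order from Elane, Mpo, Prtn3 and Ctsg, where replicate 2 was the highest.

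Lcn2, the siderophore-binding lipocalin, measured 830, 1587 and 2736 CPM in joint nonmigrated cells. Fcnb, a ficolin that recognizes sugars on microbes, was the least abundant of the set at 14.6, 43.1 and 60.6 CPM. Per kilobase of exon, the joint nonmigrated level was highest for Ngp at 3645 ± 2033 CPM per kb (SD, n = 3), followed by Camp at 1204 ± 600 and Ltf at 775 ± 442. On the same per kilobase scale Mpo measured 136 ± 82.8, Elane 114 ± 71.8 and Prtn3 71.1 ± 40.6, and their spreads overlap. Fcnb at 29.5 ± 17.3 and Ms4a3 at 18.5 ± 10.9 CPM per kb were the lowest.

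Skin nonmigrated cells, from an inflamed site as well, held mainly Lcn2, Ngp and Ltf. Lcn2 measured 92.1, 178 and 50.5 CPM, Ngp 22, 31.1 and 8.37 CPM and Ltf 10.4, 21.4 and 5.61 CPM in skin nonmigrated replicates 1, 2 and 3. Camp measured 0.84, 0.994 and 0.208 CPM there. All 4 genes were highest in replicate 2 and lowest in replicate 3. The fold of joint over skin nonmigrated means was 16.1 for Lcn2, 111 for Fcnb, 215 for Ltf, 217 for Ngp and 1340 for Camp. Lcn2 is also transcribed by cells other than granulocytes, and its source in the skin was not tested.

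**Figure D2:**
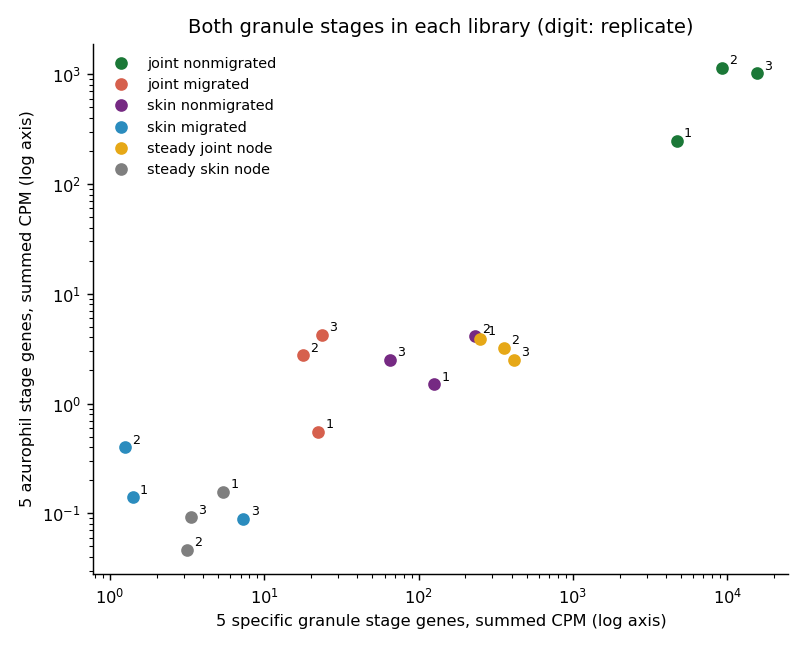
Summed CPM of the 5 azurophil stage genes against summed CPM of the 5 specific granule stage genes in each library (log axes, colours give the group and digits the replicate). The joint nonmigrated libraries stand apart at the upper right, and the steady joint node libraries, at 249 to 413 CPM of specific granule stage genes, hold only 2.51 to 3.87 CPM of azurophil stage genes.

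The balance between both stages differed between groups. Azurophil stage genes made up 5% (exact 95% interval 4.9% to 5.1%), 11% (10.9% to 11.1%) and 6.17% (6.11% to 6.23%) of the members' counts in joint nonmigrated replicates 1, 2 and 3. In the steady joint node they made up 1.53%, 0.896% and 0.604%. In joint migrated cells the share was 2.44% (1.61% to 3.53%), 13.4% (11.2% to 15.9%) and 15.2% (13.3% to 17.3%). Of the azurophil sums there, 0.554, 2.76 and 4.22 CPM, Ctsg alone made up 0.185, 1.05 and 1.91 CPM. The intervals cover counting error only, and the replicates of a group differed by more than their intervals. The steady joint node and joint nonmigrated shares did not overlap, and the joint migrated shares spanned a wider range than either.

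The proportions of single members to each other within a library also differed between groups. Ngp per Camp, on the CPM per kb scale, was 2.9, 2.82 and 3.21 in joint nonmigrated and 3.13, 3 and 3.73 in joint migrated cells. It was 3.51, 4.54 and 4.16 in the steady joint node but 16.3, 19.4 and 25 in skin nonmigrated cells. The skin nonmigrated libraries thus held little Camp for their Ngp. Lcn2 per Ngp on the same scale was 0.18, 0.179 and 0.18 in joint nonmigrated cells, 0.23 to 0.24 in the steady joint node and 1.95 to 2.81 in skin nonmigrated cells. Set against S100a8, the calcium-binding protein that mature neutrophils also transcribe, Ngp measured 0.66, 0.735 and 0.72 in joint nonmigrated cells, 0.417 to 0.476 in the steady joint node and 0.0139 to 0.022 in skin nonmigrated cells. Ctsg per Mpo was 0.455 to 0.494 in joint nonmigrated, 0.494 to 0.855 in steady joint node and 3.31 to 4.81 in joint migrated cells. It was higher still, at 7.18 and 15.6, in skin nonmigrated replicates 1 and 2, on 6 and 10 counts of Mpo. Skin nonmigrated replicate 3 had 0 counts of Mpo.

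**Figure D3:**
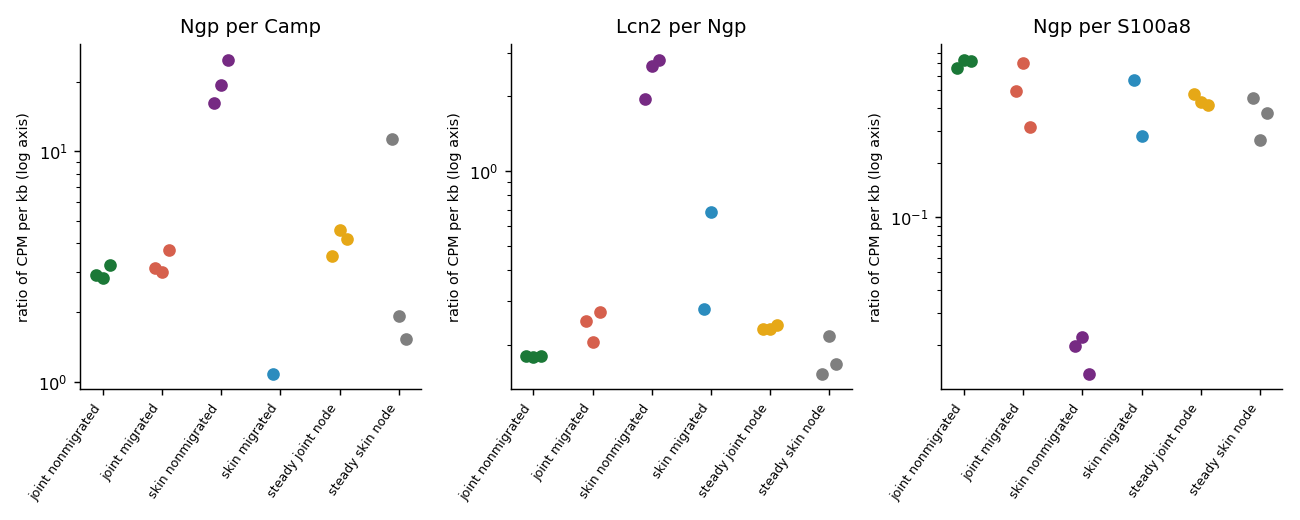
Ratios of CPM per kb of Ngp to Camp, Lcn2 to Ngp and Ngp to S100a8 in each library with more than 3 counts of both genes (log axes, 1 point per library, columns are groups). Skin nonmigrated cells lie above all joint groups in Ngp per Camp and Lcn2 per Ngp and below them in Ngp per S100a8.

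The mature neutrophil list was present at both inflamed sites. Its 11 genes summed to 5310 to 16130 CPM in joint nonmigrated and 2291 to 4588 CPM in skin nonmigrated cells. Of the 11, 5 were called higher in joint nonmigrated than in skin nonmigrated cells and 3 lower, in edgeR (adjusted p under 0.05 and over 1 on the log2 scale), where 5.45% of all tested genes were called higher and 8.86% lower. Retnlg (log2 fold change 4.13 ± 0.60 SE), Ly6g (3.76 ± 0.47) and Wfdc21 (3.70 ± 0.51) rose, and Il1r2, the decoy receptor of interleukin 1, fell by 2.49 ± 0.45. Cxcr2, the chemokine receptor acquired late in neutrophil maturation, measured 130 ± 65.8 CPM (SD, n = 3) in joint and 138 ± 26.7 CPM in skin nonmigrated cells. Several genes of the list are known to be transcribed by monocytes too.

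Other granule genes moved in part with the members. Of 13 tested genes in the list of other specific and gelatinase granule genes, 7 were higher and 1 lower in joint nonmigrated than in skin nonmigrated cells, led by Cd177 (log2 5.58 ± 0.37), which encodes a neutrophil surface partner of proteinase 3. Of 13 tested other azurophil granule genes, 6 were higher and 1 lower, led by Prss57 (5.91 ± 0.74), the gene of neutrophil serine protease 4. Against joint migrated cells, 12 of the 13 specific and gelatinase genes and 9 of the 13 azurophil genes were higher in joint nonmigrated cells, where 18.4% of all tested genes were. Bpi had at most 3 counts in every library. Among 10 listed transcription factors, not all of them particular to granulocytes, 5 were higher in joint than in skin nonmigrated cells. Among the 5 were Myb (2.37 ± 0.45), which acts in progenitors, Cebpe (2.14 ± 0.61), needed for specific granules, and Gfi1 (1.53 ± 0.39), a repressor needed for neutrophil formation. Ets1 fell by 1.16 ± 0.31.

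Markers of B cell precursors and of B cells also differed between the inflamed sites, and those of other immature blood cells did so only in part. All 6 B cell precursor markers were called higher in joint nonmigrated than in skin nonmigrated cells, and their sum was 30, 23.7 and 127 CPM in joint nonmigrated replicates 1, 2 and 3 against 0.18, 1.93 and 2.7 CPM in skin nonmigrated ones. Of these, Rag1, a recombinase gene of developing lymphocytes, measured 4.98 to 46.5 CPM in joint nonmigrated cells and 0 to 0.052 CPM in skin nonmigrated cells. All 5 B cell markers were called higher in joint nonmigrated cells as well. Their sum was 99.9 to 227 CPM in joint and 10.5 to 24.9 CPM in skin nonmigrated cells. Of the 8 cell cycle genes 6 were called higher there, and of the 6 T cell markers 5 were called lower in joint nonmigrated cells. The erythroid sum was 19.5 to 33.3 CPM in joint and 4.74 to 42.5 CPM in skin nonmigrated cells, and the sum of megakaryocyte and platelet markers was 97 to 185 and 90.5 to 365 CPM, so both overlapped. Monocyte markers summed to 15850 to 17930 CPM in joint and 2838 to 7183 CPM in skin nonmigrated cells, and eosinophil markers to 35.6 to 155 and 11.1 to 98.2 CPM. Only 2 of the 7 monocyte markers and 4 of the 7 eosinophil markers were called higher in joint nonmigrated cells, and 0 lower. Of all tested genes 5.45% were higher there. The 7 stem and progenitor markers summed to 72.6 to 117 CPM in joint and 102 to 131 CPM in skin nonmigrated cells, which overlapped. Of the 6 tested, 2 were called higher in joint nonmigrated cells and 1 lower, where 8.86% of all tested genes were lower. Cd34, a progenitor marker, measured 17.7 ± 5.68 CPM in joint and 4.1 ± 1.41 CPM in skin nonmigrated cells (SD, n = 3), whereas Kit, shared with mast cells, measured 37.8 ± 10 and 35.7 ± 7.59 CPM. The part of these other cells in the level of the members was not tested.

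**Figure D4:**
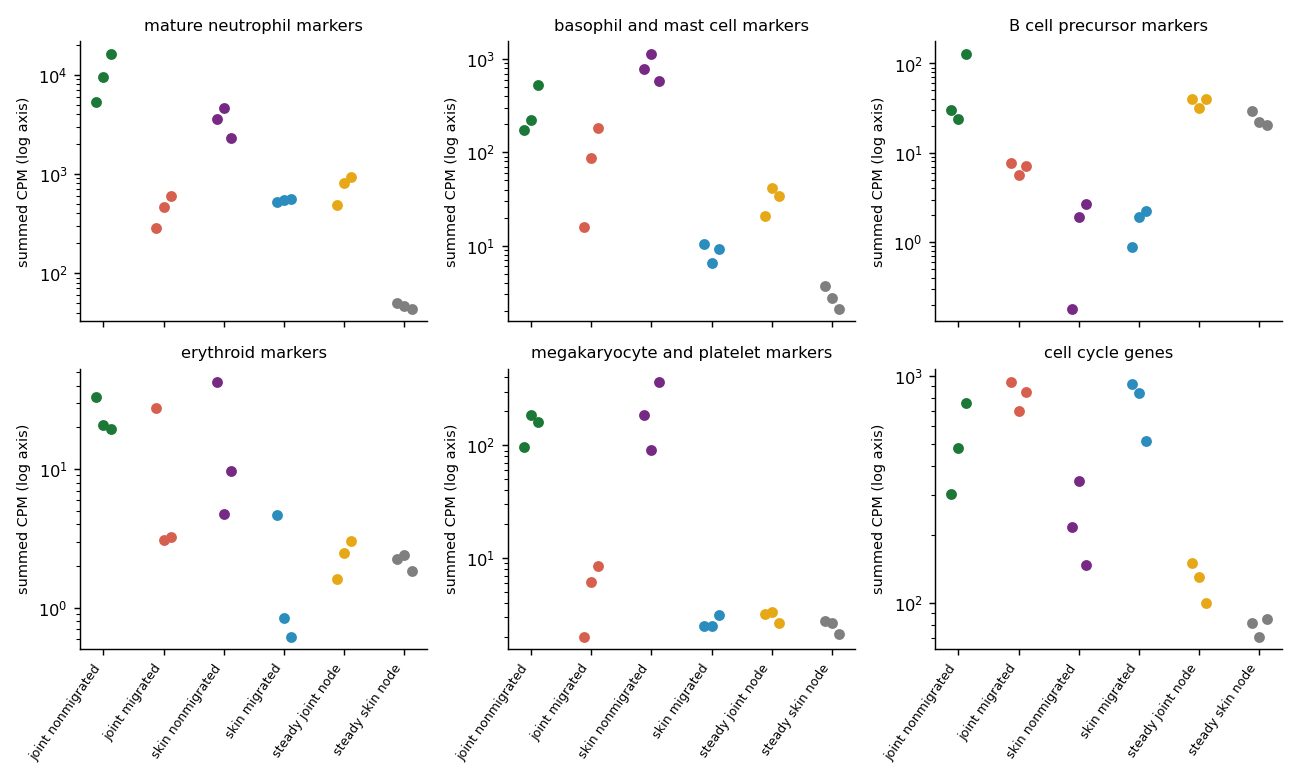
Summed CPM (log axes) of 6 marker lists in each library, by group. B cell precursor markers are higher in all 3 joint nonmigrated libraries (23.7 to 127 CPM) than in skin nonmigrated ones (0.18 to 2.7 CPM), whereas erythroid and megakaryocyte sums overlap between the inflamed sites.

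The steady joint node held more of the granule transcripts than the steady skin node. Of the 10 members, Prtn3, Camp, Ngp, Ltf and Lcn2 were called higher in the steady joint node, where 3.23% of all 17107 tested genes were. Elane and Fcnb were called too, but they passed the filter on low counts only through the steady joint node libraries and had to differ. Mpo, also called, would not have passed without those libraries. The calls of Elane, Fcnb and Mpo are not read as results. The test was edgeR's quasi-likelihood test on the 12 node libraries, with Benjamini-Hochberg adjustment. Ngp measured 107, 157 and 181 CPM in steady joint node replicates 1, 2 and 3 and 2.87, 1.3 and 1.28 CPM in the steady skin node. Its log2 fold change was 6.32 ± 0.40 (SE) with an adjusted p of 1.59e-06 in edgeR. Every steady joint node library lay above every steady skin node library for Ngp.

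Lcn2 measured 53, 77.9 and 93.4 CPM against 0.942, 0.602 and 0.458 CPM, with a log2 fold change of 6.76 ± 0.43 and an edgeR adjusted p of 1.59e-06. Ltf (69, 99.2 and 111 CPM against 1.46, 0.811 and 1.1 CPM) gave 6.36 ± 0.53 and an edgeR adjusted p of 7.67e-06. Camp (18.9, 21.4 and 27 CPM against 0.157, 0.417 and 0.519 CPM) gave 5.96 ± 0.42 and an edgeR adjusted p of 2.87e-06. The groups did not overlap for any of these genes, and the 4 log2 fold changes ran from 5.96 (Camp) to 6.76 (Lcn2).

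Fcnb had 30, 24 and 26 counts in the steady joint node and no count in the steady skin node, which makes it at least 8.03-fold higher (against 3 counts per library). The azurophil stage genes were low in both nodes. Mpo measured 1.6, 1.52 and 1.04 CPM in the steady joint node and had 3, 0 and 2 counts in the steady skin node (edgeR adjusted p 0.00205). Its call is not read as a result, as given above. Prtn3 had 44, 32 and 32 counts against 0, 0 and 1, a ratio of 99.5 with a counting interval of 17.5 to 3967 (edgeR adjusted p 0.00187). Elane had 31, 12 and 16 counts against 2, 0 and 0, a ratio of 27.2 with an interval of 7.2 to 230. Ctsg, with 15, 16 and 7 counts against 1, 0 and 0, did not pass (edgeR adjusted p 0.0517), and Ms4a3 was removed by the filter on low counts.

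Mature neutrophil genes moved with the members between the steady nodes. All 11 genes of that list were called higher in the steady joint node, with a median log2 fold change of 5.7, and their sum was 482 to 938 CPM against 43.6 to 49.6 CPM. Of 13 tested other specific and gelatinase granule genes, 10 were higher, led by Olfm4 (log2 7.44 ± 0.72), Mmp8 (6.01 ± 0.42) and Chil3 (5.50 ± 0.51). Only 2 of 12 tested other azurophil granule genes were higher, Lyz2 (2.91 ± 0.31) and Cd63 (1.95 ± 0.36). Of the B cell precursor markers 3 of 6 were higher, and the sum of the 5 B cell markers was 3928 to 4398 CPM in the steady joint node and 2478 to 3503 CPM in the steady skin node.

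Joint migrated cells held less of the specific granule transcripts than the steady joint node. Camp, Ngp, Ltf and Lcn2 were called lower, where 7.31% of all tested genes were. Ngp measured 8.71, 8.25 and 10.2 CPM in joint migrated replicates 1, 2 and 3, under every steady joint node value, and fell by 4.00 ± 0.35 on the log2 scale (edgeR adjusted p 7.09e-07). Ltf measured 7.1, 4.02 and 5.64 CPM and fell by 4.02 ± 0.45 (edgeR adjusted p 7.59e-06). Lcn2, at 4.64, 3.62 and 5.9 CPM, fell by 3.95 ± 0.35 (edgeR adjusted p 9.53e-07). Camp, at 1.73, 1.71 and 1.69 CPM, was the least variable member of the group and fell by 3.68 ± 0.35 (edgeR adjusted p 1.8e-06). Fcnb had 1, 8 and 4 counts in joint migrated cells against 30, 24 and 26 in the steady joint node. It entered the test only through the latter group, so its call as lower is not read as a result.

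No azurophil stage gene was called lower in the same comparison. Elane measured 0.0411, 0.187 and 0.214 CPM in joint migrated cells, with a log2 fold change of -1.56 ± 0.63 (edgeR adjusted p 0.0593). The log2 fold changes of Mpo (-0.82 ± 0.56) and Prtn3 (-0.74 ± 0.57) did not pass, with edgeR adjusted p of 0.244 and 0.299. Mpo and Prtn3 overlapped between the groups, and Elane did not. Ms4a3 was not tested. Ctsg was called in the opposite direction, at 0.185, 1.05 and 1.91 CPM in joint migrated cells against 0.334, 0.393 and 0.155 CPM in the steady joint node, where 16.9% of all tested genes were higher. Its log2 fold change was 1.86 ± 0.69 (edgeR adjusted p 0.0425), and the groups overlapped at joint migrated replicate 1. The call was lost in most of the alternatives, among them DESeq2 (adjusted p 0.0673) and without joint migrated replicate 3 (1.10, edgeR adjusted p 0.239). Ctsg passed the filter on low counts through 2 libraries of each of these groups. It would not have passed without the joint migrated libraries, so its call is not read as a result.

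**Figure D5:**
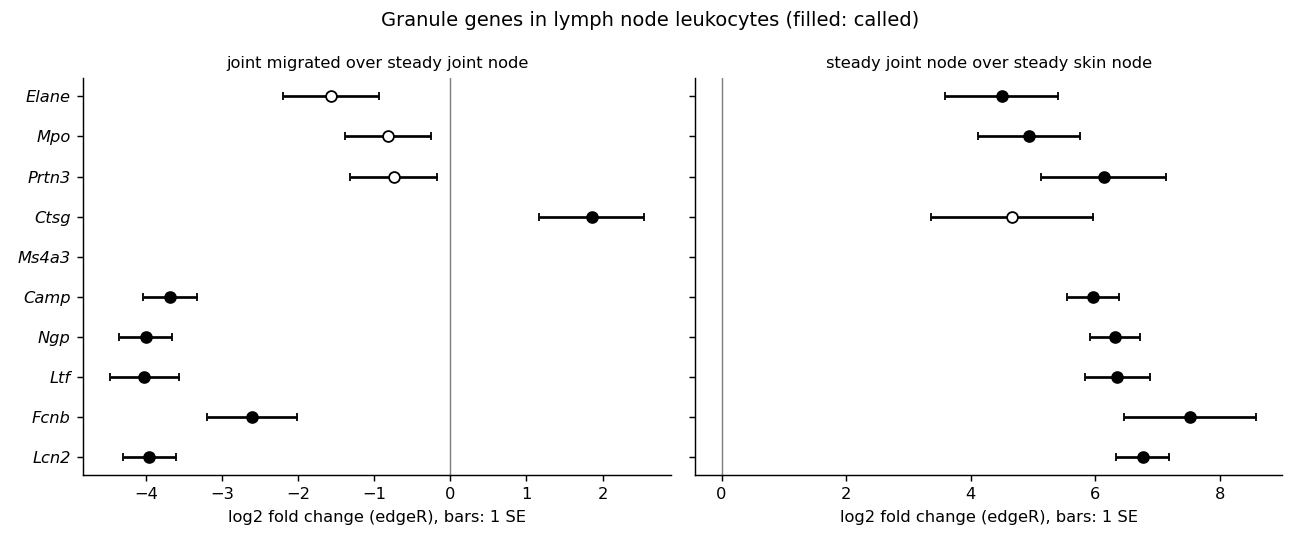
EdgeR log2 fold changes with 1 SE of the granule genes in joint migrated over steady joint node cells (left) and in steady joint node over steady skin node cells (right), filled where called. On the left Camp, Ngp, Ltf and Lcn2 lie between -4.02 (Ltf) and -3.68 (Camp) and Ctsg at 1.86. Elane and Fcnb, in both panels, passed the filter only through the steady joint node, and Mpo would not have passed without it. Ctsg needed both the joint migrated and the steady joint node libraries to pass. On the right the values of Elane, Mpo, Prtn3, Ctsg and Fcnb rest on at most 3 counts in each steady skin node library and depend on the prior count of the fit.

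Mast cells are also known to hold the product of Ctsg. Basophil and mast cell markers differed between joint migrated and steady joint node cells in both directions. The sum of these markers was 16, 86.5 and 180 CPM in joint migrated replicates 1, 2 and 3, and 20.7 to 41 CPM in the steady joint node. Ctsg had the same order of the joint migrated replicates, and so had Mpo and Elane. Of the 7 markers, 4 were higher in joint migrated than in steady joint node cells, led by the mast cell proteases Tpsb2 (log2 7.29 ± 0.91), Cma1 (5.81 ± 0.67) and Cpa3 (4.86 ± 0.74). The basophil protease gene Mcpt8, which lies 14607 bases from Ctsg, fell by 1.43 ± 0.43, and the histidine decarboxylase gene Hdc was lower too. The part of mast cells in the Ctsg value was not tested.

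Other genes of the neutrophil line fell with the specific granule members in joint migrated cells. Of the 11 mature neutrophil genes, 9 were lower, led by S100a8 (fell by 4.02 ± 0.44), S100a9 (fell by 3.98 ± 0.41) and Retnlg (fell by 3.88 ± 0.58), and 1, Mxd1, was higher. Of 13 other specific and gelatinase granule genes, 8 were lower, led by Olfm4, Cd177 and Mmp8, while Mmp25 and Adam8 were higher. Of 12 other azurophil granule genes, Cd63 (5.69 ± 0.31) and Arsb were higher and Lyz2 fell by 1.03 ± 0.29. Among the transcription factors Cebpe fell by 1.89 ± 0.72, and Cebpa (1.66 ± 0.22) and Spi1 (1.04 ± 0.24) rose. All 6 B cell precursor markers and all 5 B cell markers were lower, and all 8 cell cycle genes were higher. The part of these other cell types in the lower level of the members was not tested.

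In the skin-draining node the members were low in both states, and no member exceeded 3.55 CPM in a library. Ngp had 2, 10 and 28 counts in skin migrated cells, at 0.0931, 0.5 and 1.24 CPM, and was called lower than in the steady skin node (log2 fold change -1.53 ± 0.53, edgeR adjusted p 0.0209), where 15% of all tested genes were. The groups did not overlap, and the call was lost without skin migrated replicate 1 or 2 or steady skin node replicate 1. Prtn3, with 1, 6 and 2 counts against 0, 0 and 1, was called higher (edgeR adjusted p 0.0304), where 21.5% of all tested genes were. The ratio of its counts was 16.9 with an interval of 2.35 to 742, and the call was lost without skin migrated replicate 2 or steady skin node replicate 1 or 2. Camp (log2 -0.03 ± 0.56), Ltf (0.48 ± 0.59) and Lcn2 (0.43 ± 0.53) were not called. Skin migrated replicate 3 held 80 counts of Ltf and 41 of Lcn2, against 7 to 13 and 6 to 11 in the other replicates. Without it Ltf was called lower (-1.23, edgeR adjusted p 0.041).

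The change from steady state differed between joint and skin for 4 of the 10 members, where 3.78% of all tested genes were lower in this difference. The joint minus skin difference of the log2 changes was -4.50 ± 0.74 for Ltf (edgeR adjusted p 0.0023), -4.38 ± 0.65 for Lcn2 (0.00124) and -3.66 ± 0.69 for Camp (0.0056). For Ngp it was -2.47 ± 0.69 with an edgeR adjusted p of 0.0376. Without skin migrated replicate 3 the calls of Camp (-2.38, edgeR adjusted p 0.0905) and Ngp (-1.33, edgeR adjusted p 0.363) were lost, and that of Ngp was also lost in 7 other fits that left out 1 library. The steady joint node, the group at the higher level of the 4, enters this difference as one of its controls, and the steady groups differ in their titles as given above. In the steady skin node Camp had 7 to 18 counts per library and Lcn2 15 to 42. A fall there as large as in the joint would have ended under the floor of detection. It could not have been measured in full for any of the 4 members.

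Skin migrated cells, sorted from the draining node, held less Lcn2, Ngp, Ltf and Ctsg than skin nonmigrated cells. In that comparison 19.7% of all tested genes were lower. Lcn2 fell by 6.90 ± 0.73 on the log2 scale (edgeR adjusted p 1.38e-05), from 50.5 to 178 CPM in skin nonmigrated to 0.3 to 1.82 CPM in skin migrated cells. Ngp fell by 5.04 ± 0.71 (edgeR adjusted p 0.000112) and Ltf by 3.03 ± 0.76 (edgeR adjusted p 0.00509). None of these 3 genes overlapped between the groups. Ctsg, at 13, 47 and 34 counts in skin nonmigrated cells and none in skin migrated cells, was at least 12.5-fold lower in the latter (edgeR adjusted p 0.00742). Fcnb, with 3, 9 and 7 counts against none, was at least 2.53-fold lower (edgeR adjusted p 0.0201), and its call was lost without skin nonmigrated replicate 2 (edgeR adjusted p 0.0544). It passed the filter on low counts only through the joint nonmigrated libraries, the group by which the members were chosen. Its call is therefore not read as a result. Camp (log2 -0.96 ± 0.80, edgeR adjusted p 0.322) and Prtn3 (-2.02 ± 1.15, edgeR adjusted p 0.151) were not called. In the fit with a replicate block, Prtn3 (-2.03, edgeR adjusted p 0.00525) and Mpo (-2.21, edgeR adjusted p 0.0347) were called lower.

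All 7 basophil and mast cell markers fell in the same comparison, and so did 10 of the 11 mature neutrophil genes and 10 of the 13 other specific and gelatinase granule genes. Stfa2l1 fell by 9.55 ± 0.72, S100a8 fell by 8.08 ± 0.76 and Mmp8 fell by 7.60 ± 0.68. The basophil and mast cell sum was 586 to 1132 CPM in skin nonmigrated and 6.54 to 10.4 CPM in skin migrated cells, and its part in the Ctsg value was not tested.

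Between both kinds of migrated cells only Ngp was called, where 0.56% of all tested genes were higher in joint migrated cells. Its log2 fold change of joint migrated over skin migrated was 3.86 ± 0.70 (edgeR adjusted p 0.0207), and its libraries did not overlap. The call was lost without any 1 of joint migrated replicates 1, 2 or 3 or skin migrated replicates 1 or 2 (edgeR adjusted p 0.055 to 0.0742). Camp (2.31 ± 0.64) and Lcn2 (2.40 ± 0.68) gave edgeR adjusted p of 0.0989 and 0.106, and DESeq2 called both, with Ctsg and Ngp.

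Across groups, every member stood first in joint nonmigrated cells. The steady joint node came second for Elane, Mpo, Prtn3, Ms4a3, Camp, Ngp, Ltf and Fcnb, and skin nonmigrated cells came second for Ctsg and Lcn2. The second group overlapped with the next in the order for Mpo (steady joint node with joint migrated cells), Ctsg (skin nonmigrated with joint migrated cells) and Lcn2 (skin nonmigrated cells with the steady joint node), but not for the other members. Against the steady joint node, the fold of the joint nonmigrated means was 23 for Lcn2, 28.8 for Ltf, 30 for Ngp, 40.6 for Camp and 64.6 for Fcnb. For the azurophil stage genes that fold ran from 143 (Ms4a3) to 335 (Mpo). Both descriptions rest on the group by which the members were chosen.

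The genes most like each stage over the 18 libraries were found by Pearson correlation of log2(CPM + 1) with the mean of the stage's 5 members, as a description. The libraries are not independent points, since 3 of them hold nearly all of the signal. For the azurophil stage, the non-members most alike were Gm11505 (r = 0.989), which overlaps Mpo on the opposite strand, Adgrg7 (0.987), Gpr27 (0.986), Scrg1 (0.985) and Prss57 (0.983). For the specific granule stage they were Cd177 (0.990), Ifitm6 (0.990), Ceacam10 (0.966), Wfdc21 (0.963) and Abca13 (0.961). Fcnb, placed with the specific granule genes, had r = 0.996 with the azurophil mean and 0.927 with the mean of its own stage, of which it is a part. Camp had 0.926 and 0.972 in the same order, and Lcn2 0.802 and 0.949.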

How the data were processed

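The authors sorted pooled cells, sequenced paired 100 bp reads, trimmed them with Trim-Galore!, aligned them to mm10 with TopHat2 and counted reads per Ensembl gene with HTSeq in its default mode. The deposited table holds these raw counts for 49585 genes in 18 libraries, besides 5 summary rows (11.3% to 15.1% of each library) that were left out. Groups came from the sample labels. Of the gene identifiers, 49326 matched GENCODE M21, the source of symbols, positions and exon lengths.

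These counts went into the quasi-likelihood F test of edgeR 4.0.16 (R 4.3.3, limma 3.58.1), after TMM scaling and filterByExpr (minimum count 10). The 12 inflamed libraries (16777 genes) and the 12 lymph node libraries (17107 genes) were fitted separately with group as the only factor. Calls required an adjusted p (Benjamini-Hochberg, over all tested genes) under 0.05, the threshold of the study's methods, and over 1 on the log2 scale in either direction. SE are the fold change divided by the root of F. All 10 members passed the filter in the inflamed fit and 9 in the node fit. In the inflamed fit Elane, Ms4a3 and Fcnb would not have passed without the joint nonmigrated libraries. Levels are TMM CPM over 18 libraries. Replicates differed beyond sampling noise, and the test was checked on simulated counts. Ratios against 1 to 3 counts carry exact intervals of counting error.

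The members and lists were chosen with earlier results of these data known. Named genes are all members, the 3 called genes of each list with the largest change in each direction, the first 3 markers of a list, and the 5 non-members most like each stage. Alternatives were a threshold of 0.001, the Wald test of DESeq2 1.42.0, its size factors within edgeR, no filter, a fit of all 18 libraries, a replicate block and leaving out each replicate. Promoter sequences are from RefSeq on mm10. Tables and figures used Python 3.11.15 and matplotlib 3.10.9.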

Additional observations from a re-analysis of the deposited data

Results flagged for a closer look

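The 4 members below were picked out because their change from steady state differed between the joint-draining and skin-draining nodes in a test of the difference itself (edgeR interaction, adjusted over all tested genes). The joint minus skin difference of the log2 changes was -3.66 for Camp, -2.47 for Ngp, -4.50 for Ltf and -4.38 for Lcn2. In all 4 the joint migrated libraries lay below the steady joint node libraries. The skin migrated libraries overlapped with the steady skin node for Camp, Ltf and Lcn2, and for Ngp they lay below it. As given above, a fall as large as in the joint could not have been measured in full there. Ltf and Lcn2 kept their calls in every fit that left out 1 library, and Camp and Ngp did not.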

How the results depend on the processing

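Calls of members at an adjusted p under 0.001 numbered 2 of 5 for skin migrated over skin nonmigrated, 4 of 8 for steady joint over steady skin node, 0 of 4 for the joint minus skin difference, 0 of 1 for joint migrated over skin migrated and 0 of 2 for skin migrated over steady skin node. At an unadjusted p under 0.05 edgeR gave 5, 6 and 2 members in the last 3. In the same order, 4635 of 17107, 2770 of 16777 and 11692 of 17107 tested genes lay under 0.05. Nothing is read from these member counts. Joint migrated over skin migrated gave 4 calls with no filter, 4 with all 18 libraries fitted together and 4 with DESeq2. Skin migrated over steady skin node gave 0 with all 18 libraries. Leaving out each replicate gave 0 to 1 calls for joint migrated over skin migrated, 0 to 3 for skin migrated over steady skin node and 2 to 4 for the difference. It gave 5 to 7 for joint migrated over steady joint node, 7 to 9 for steady joint over steady skin node and 4 to 5 for skin migrated over skin nonmigrated. Counts under the settings not listed stayed within 1.5 times. In skin migrated over steady skin node, leaving out a replicate gave Camp -1.29 to 0.34 (0.23 without skin migrated replicate 1 and without steady skin node replicate 3, 0.34 and 0.06 without replicate 2 of each), Ltf -1.23 to 0.89 and Lcn2 -0.74 to 0.78 (both negative only without skin migrated replicate 3). The cause was not tested. Counts for the nodes include Elane and Fcnb, which passed the filter only through the steady joint node, and Mpo, which needed it to pass. They also include Ctsg, which needed both the joint migrated and the steady joint node libraries to pass. Counts for skin migrated over skin nonmigrated include Fcnb, which passed only through the joint nonmigrated libraries.

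Whether same-numbered samples share animals is not given. Between nonmigrated and migrated cells of the same site, the deviations of same-numbered samples correlated weakly (0.014 to 0.189). The own number matched best there except in joint replicate 1. It also matched best between joint migrated and skin migrated replicates 2 and 3, so these correlations cannot decide the pairing. In comparisons of other groups they ran from -0.25 to 0.132. With the replicate block within each site, joint migrated over skin migrated gave 2 calls (Mpo and Ctsg, 0 shared with the fit without the block), and the other counts stayed within 1.5 times. In skin migrated over skin nonmigrated the block added calls of Mpo and Prtn3. Elane, Mpo, Ctsg and Ms4a3 had at most 3 counts in every library of the skin-draining nodes, which limits what can be said of them there.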
